A study of Rattus norvegicus with 8 samples.

Results

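The proteasome genes of rat pulmonary artery smooth muscle cells were examined for their response to S-nitrosoglutathione (GSNO), a donor of nitric oxide. They were the 27 genes, measured by 49 probe sets, whose annotation on the array gave a single symbol beginning with Psma, Psmb, Psmc, Psmd or Psme, out of 4737 genes with a single-symbol probe set. Where a gene had several probe sets, that with the highest mean signal over the 8 arrays stood for it, which applied to 14 genes, while 13 genes had 1 probe set. A further 5 probe sets carried a proteasome symbol among several symbols and were not used. The catalytic subunits Psmb6 and Psmb7, the inducible Psmb10, the activator Psme3 and the lid deubiquitinase Psmd14 had no single-symbol probe set here.

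The cells were a primary culture grown from explants of pulmonary arteries of adult Sprague-Dawley rats, stripped of endothelium and adventitia. They were untreated (control) or exposed to GSNO for 1, 2 or 4 h, with 2 Affymetrix rat genome arrays of the U34 set per group, numbered 1 and 2 in the labels. The labels give no time for the untreated cells, and the sources disagree on the concentration, micromolar in one and millimolar in the other, so none is given here. The study speaks of 2 independent preparations without tying an array number to a preparation. P-values therefore measure the spread between these arrays, which may be partly technical.

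The proteasome is the cell's main protease for proteins tagged with ubiquitin. Its core is a barrel of outer alpha rings, which gate the entrance, and inner beta rings, which hold the proteolytic sites. A base with ATPases and a lid recognise, deubiquitinate and unfold the substrate, and separate activators can cap the core in their place. Interferon gamma induces alternative catalytic subunits and the activator genes Psme1 and Psme2, which favour the production of peptides for antigen presentation. NRF2, the transcription factor of the oxidative and electrophile response, is known to raise several core and base subunits by binding antioxidant response elements.

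The arrays gave 1 signal per probe set in linear units, with a trimmed mean of about 501 units on each of the 8 arrays. All 27 genes passed the filter on low signal, and 25 of them lay at or above the 40th percentile of signal on every array, the exceptions being Psmb8 and Psmd10. Of 10 smooth muscle markers on the array 9 were kept, and Acta2, the smooth muscle actin, measured between 10882 and 23826. Des, another muscle marker, did not pass the filter. Of 5 endothelial markers on the array 3 were kept, Flt1, Nos3 and Pecam1, with signals of no more than 332, while Vwf and Kdr did not pass the filter. Of 7 leukocyte and macrophage markers 3 were kept, Cd14, Ptprc and Cd74, with signals of no more than 450, while Aif1, Csf1r, Lyz2 and Itgam did not pass. All 6 fibroblast markers were kept, and Col1a1 and Col3a1 reached signals of 13508.5 and 11893. Of the 6, Dcn fell by 2.42 on the log2 scale at 4 h of GSNO (adjusted p = 0.0452). With array number as a replicate block it also passed at 1 h, where it fell by 2.30 (adjusted p = 0.0172). At 2 h Dcn was at 0.37 and did not pass. Its signals reached no more than 372 and lay at or above the 40th percentile on 4 of the 8 arrays. At 4 h Col1a1, Col3a1 and Lum were at -0.21, -1.09 and -0.64. Thy1 and Pdgfra were at 0.27 and 0.196, and none of these others passed. Of the smooth muscle markers Myh11 was at -0.60 at 4 h and passed with the block (adjusted p = 0.0434), not without it (adjusted p = 0.612). The part of these markers in the proteasome results was not tested. Known NRF2 targets outside the proteasome are given for the size of the response. They were chosen with earlier results of these data known, so they are no independent check. Of 20 kept targets 4 were called higher at 4 h without the block. Hmox1, heme oxygenase 1, was higher by 4.64 ± 0.41 on the log2 scale (SE, n = 2 arrays per group) at 4 h (adjusted p = 0.00190). Nqo1, a quinone reductase, was higher by 4.59 ± 0.34 (adjusted p = 8.42e-04), and Gclc, which limits glutathione synthesis, by 4.46 ± 0.28 (adjusted p = 7.69e-04). These and all later adjusted p-values come from limma with Benjamini-Hochberg adjustment over 5877 kept probe sets, and fold changes are differences of log2(signal + 21.1). The 3 comparisons with control share the control arrays.

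No proteasome gene passed an adjusted p of 0.05 at any time of GSNO exposure, and neither did any of the 46 kept probe sets of these genes. At 1 h, 0 of 27 genes passed, against 0.527% of all kept probe sets. At 2 h, 0 of 27 passed against 0.97%, and at 4 h, 0 of 27 against 1.53%. The lowest adjusted p among the 27 genes was 1.00 at 1 h, 1.00 at 2 h and 0.413 at 4 h, the last for the ATPase Psmc2. An F test over the 3 times called 1.14% of all kept probe sets and 0 of the 27 genes (lowest adjusted p = 0.964). At an unadjusted p of 0.05, 1 gene passed at 4 h, beside 11.1% of all kept probe sets. At 1 h and 2 h 0 genes passed, beside 3.01% and 6.13%. Between the times, 0 of 27 genes passed at 2 h against 1 h, 4 h against 1 h or 4 h against 2 h, where 0%, 0.476% and 0% of all kept probe sets did.

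Arrays with the same number deviated together, so each of these tests was also run with array number entered as a replicate block. With the block, 1.34% of kept probe sets were called at 1 h, 3.16% at 2 h and 7.93% at 4 h. The proteasome count stayed at 0 of 27 each time. The lowest adjusted p among the genes was then 0.897 at 1 h, 0.171 at 2 h for Psmb8 and 0.124 at 4 h for Psmc2. The blocked F test called 5.94% of kept probe sets and 0 of the 27 genes, and the blocked comparisons of 2 h with 1 h, 4 h with 1 h and 4 h with 2 h called 0.034%, 5.1% and 0.544% of kept probe sets and again 0 of the 27. At an unadjusted p of 0.05, 5 of 27 genes passed with the block at 4 h, 1 at 2 h and 0 at 1 h. Of all kept probe sets 21.2%, 12.1% and 5.73% did so at these times. The 95% intervals in this fit had a median half-width of 0.42 on the log2 scale. At 4 h, 22 of the 27 intervals lay within 1 log2 unit of 0 in both directions. Changes smaller than these intervals were not detectable with 2 arrays per group. Larger ones could be missed too, because a call needed an adjusted p. At 4 h 5 of the 27 intervals lay wholly above 0, and none of these genes was called.

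**Figure D1:**
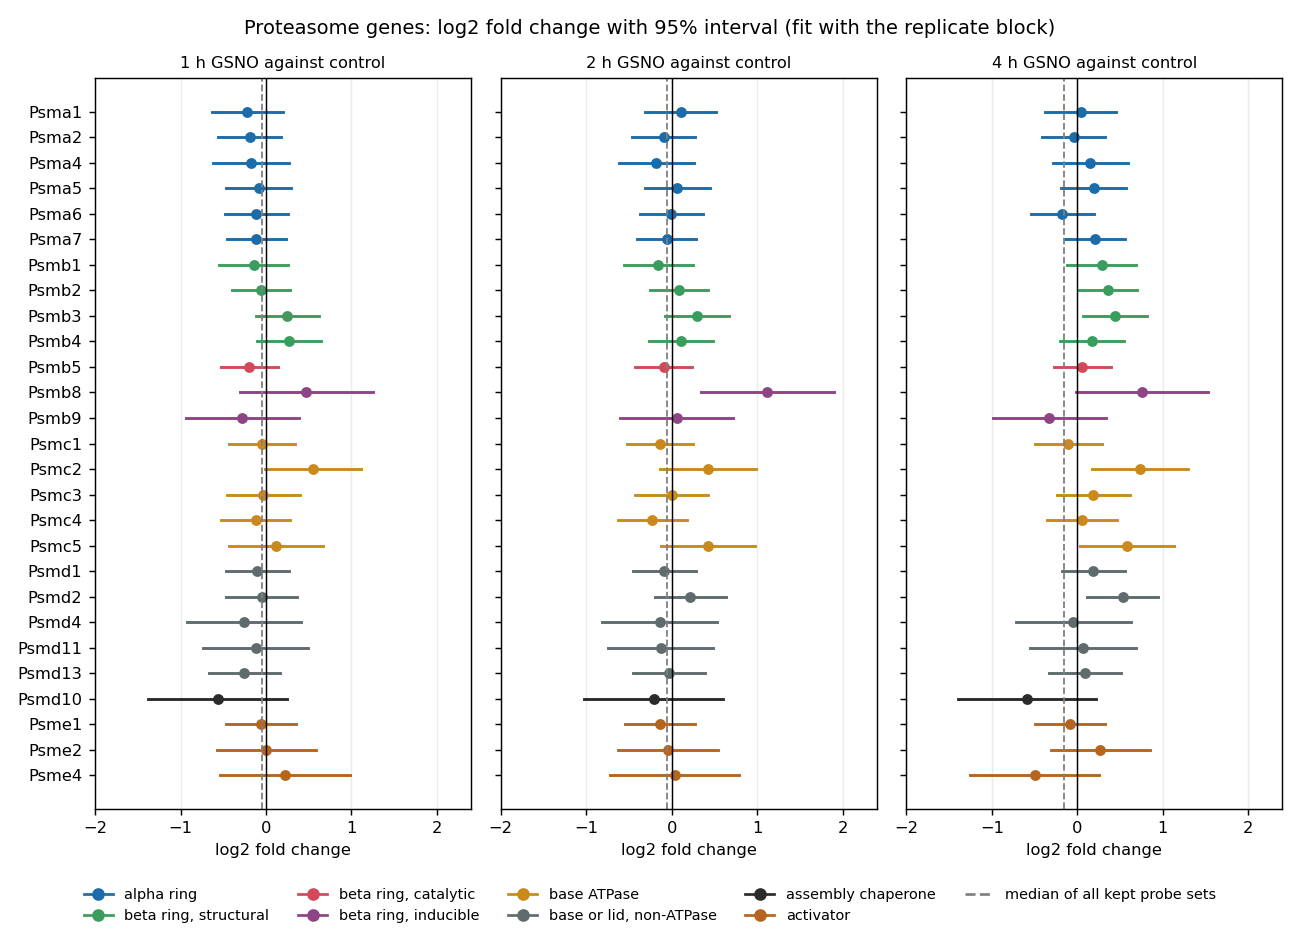
Log2 fold change of each of the 27 proteasome genes (rows, coloured by role) after 1, 2 and 4 h of GSNO against control, with the 95% interval from the fit with the replicate block; the dashed line is the median of all kept probe sets. At 4 h 19 of 27 points lie above 0, beside 35.4% of all kept probe sets. In this fit 5 intervals lie wholly above 0 and 0 wholly below it. Of all kept probe sets 21.2% had an interval that left out 0 in either direction.

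At 1 h, the middle of the group lay slightly below 0. The median log2 fold change of the 27 genes was -0.10, beside -0.05 for all kept probe sets. Above 0 were 7 genes, a share of 25.9% beside 42.5% of all kept probe sets. The arrays numbered 1 gave a median of 0.07 and those numbered 2 gave -0.29, so the sign differed between the array numbers. At 2 h the median was -0.03, beside -0.06 for all kept probe sets. Above 0 were then 12 genes, a share of 44.4% beside 42.8% of all kept probe sets.

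At 4 h the median of the 27 genes was 0.15 while that of all kept probe sets was -0.16. It was 0.15 on the arrays numbered 1 and 0.10 on those numbered 2. The log2 fold change was above 0 for 19 genes and below 0 for 8, a share above 0 of 70.4% beside 35.4% of all kept probe sets. Both 4 h arrays were above both control arrays for 11 genes, where 13.4% of all kept probe sets showed this, and both were below for 3 genes, where 27.5% did. The size of the median depended on the untreated arrays: it was 0.01 without the control array numbered 1 and 0.24 without that numbered 2. With every array set to a common median of kept probe sets it was 0.31, beside -0.01 for all kept probe sets. The control and 4 h arrays numbered 1 came from different recorded experiments, and with the recorded experiment as a block the median was 0.02, beside -0.09 for all kept probe sets. Signal level moved with this comparison too. Among the 1269 kept probe sets with a mean signal of at least 1000, a limit chosen after the signals were seen, the median was -0.03 and 19.1% had both 4 h arrays above both controls. The 20 proteasome genes of that brightness had a median of 0.16, and 10 of them had both 4 h arrays above both controls.

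From 1 h to 4 h the median log2 difference was 0.22, beside -0.13 for all kept probe sets. Signal level moved with this comparison as well. Among kept probe sets with a mean signal of at least 1000 the median was -0.01 and 48.4% were above 0, beside 38.0% of all kept probe sets. The 20 proteasome genes of that brightness had a median of 0.21, with 16 above 0. Both 4 h arrays were above both 1 h arrays for 14 genes, against 13.4% of all kept probe sets, and both were below for 0 genes, against 24.9%. This comparison shares the 4 h arrays with the one against control and is not a separate measurement of them. The 14 genes were Psma1, Psma4, Psma5, Psma7, Psmb1, Psmb2, Psmb5, Psmc2, Psmc3, Psmc4, Psmc5, Psmd1, Psmd2 and Psmd13, and each missed the threshold in the test.

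**Figure D2:**
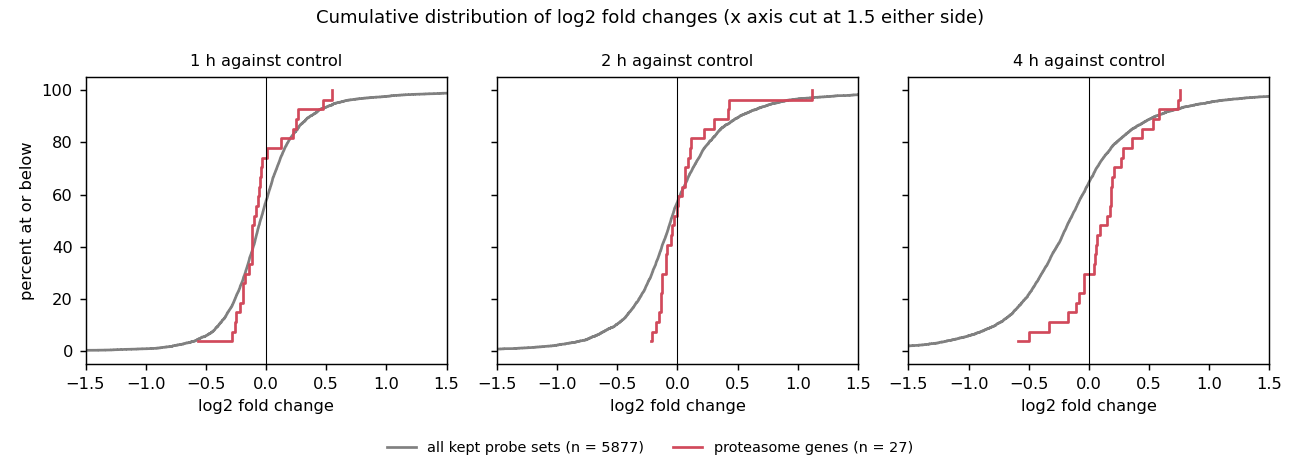
Cumulative percent of log2 fold changes at 1, 2 and 4 h against control for the 27 proteasome genes (red) and all 5877 kept probe sets (grey), with the x axis limited to 1.5 on either side. At 1 h 25.9% of the proteasome genes lie above 0, beside 42.5% of all kept probe sets, and at 2 h 44.4% beside 42.8%. At 4 h the red curve lies to the right over most of its range, with medians of 0.15 and -0.16.

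The alpha ring was represented by 6 genes, Psma1, Psma2, Psma4, Psma5, Psma6 and Psma7. All 6 log2 fold changes were below 0 at 1 h, between -0.22 and -0.09. At 4 h they ran from -0.18 for Psma6 to 0.21 for Psma7, with 4 above 0. Psma7 measured 2837 and 2572 on the control arrays numbered 1 and 2, 2701 and 2304 at 1 h, 2567 and 2622 at 2 h, and 3130.2 and 3111 at 4 h. Its 4 h arrays thus lay above all 6 others, by amounts that missed the threshold (adjusted p = 0.786). Psma4 measured 1228 and 1497 in control, 1283 and 1122 at 1 h, 1009.9 and 1415 at 2 h, and 1360.4 and 1674 at 4 h. Its groups overlapped at every time against control.

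The structural beta subunits complete the inner rings without a proteolytic site of their own. Psmb1, Psmb2, Psmb3 and Psmb4 had log2 fold changes of 0.28, 0.36, 0.44 and 0.18 at 4 h, and in all 4 both 4 h arrays were above both controls, as in 13.4% of all kept probe sets. At 1 h and 2 h the 4 genes did not share a direction. Psmb2 measured 2892 and 2823 in control, 2774 and 2704 at 1 h, 2848 and 3226 at 2 h, and 3532 and 3831 at 4 h. Its 4 h difference was 0.36 ± 0.21 (SE, n = 2 per group; adjusted p = 0.611, and 0.210 with the block). Psmb3 measured 1744 and 1508 in control, 2168 and 1727 at 1 h, 2093 and 1916 at 2 h, and 2635 and 1849 at 4 h, so the arrays numbered 1 carried the larger part of its difference. Psmb4 measured 4134 and 4041 in control, 4286 and 5633 at 1 h, 4615 and 4216 at 2 h, and 4378 and 4886 at 4 h. The highest of these was 1 array at 1 h. Other probe sets of these genes gave smaller 4 h values, 0.08 for Psmb2, 0.31 for Psmb3, and 0.06 and 0.14 for Psmb4.

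Psmb5 carries the chymotrypsin-like site of the constitutive core. It measured 4389.6 and 4453 in control, 4192 and 3563 at 1 h, 4256 and 4029 at 2 h, and 4724 and 4494 at 4 h. Both treated arrays were below both controls at 1 h and 2 h and above them at 4 h, and all 3 differences were small. They were -0.19 ± 0.22 at 1 h, -0.09 ± 0.22 at 2 h and 0.06 ± 0.22 at 4 h (SE, n = 2 per group; adjusted p = 0.957 at 4 h). The 2 other probe sets of Psmb5 gave 0.11 and 0.19 at 4 h.

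Because NRF2 acts through antioxidant response elements, the promoter windows of the genes were searched for the core TGACNNNGC on both strands. The windows came from the RefSeq table of build GRCr8, which covers 250 bases before to 50 bases after each gene's start, and 26 of the 27 genes had one. The core occurred in 4 of 26 windows, those of Psmb2, Psmb5, Psmd1 and Psme4, and in 12.1% of 33469 promoters in the table. The stretches around the match before the gene start are shown because the constitutive subunits Psmb5 and Psmb2 are among them, with the core in capitals.
Psmb2: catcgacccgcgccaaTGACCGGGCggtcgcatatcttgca
Psmb5: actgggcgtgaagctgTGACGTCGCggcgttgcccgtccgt
Psmd1: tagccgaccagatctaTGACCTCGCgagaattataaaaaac
Psme4: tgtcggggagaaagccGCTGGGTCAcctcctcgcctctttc
They lie at chr5:144254974-144255014 on the plus strand for Psmb2, chr15:32047415-32047455 on the minus strand for Psmb5, chr9:94157790-94157830 on the plus strand for Psmd1 and chr14:108706572-108706612 on the plus strand for Psme4. The Psme4 stretch holds the core on the other strand. The first base of the core was 68 bases before the start of Psmb2, 60 before that of Psmb5, 165 before that of Psmd1 and 55 before that of Psme4. The 4 h log2 fold changes of these genes were 0.36, 0.06, 0.19 and -0.50, and none passed the test. A match of these letters is a description of the sequence and was not tested for binding.

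The base ATPases, which thread substrates into the core, were Psmc1, Psmc2, Psmc3, Psmc4 and Psmc5. At 4 h 4 of 5 were above 0, from -0.11 for Psmc1 to 0.74 for Psmc2. Psmc2 measured 1158 and 639 in control, 1324 and 1221 at 1 h, 1042 and 1293 at 2 h, and 1450.5 and 1450.2 at 4 h. The control array numbered 2 was the lowest of all 8, and the log2 fold change at 4 h was 0.32 on the arrays numbered 1 and 1.16 on those numbered 2. The difference of 0.74 ± 0.31 (SE, n = 2 per group) had an adjusted p of 0.413, or 0.124 with the replicate block, and the other probe set of Psmc2 gave 0.12. Psmc5 measured 456 and 800.4 in control, 723 and 602 at 1 h, 768 and 874 at 2 h, and 885 and 948 at 4 h. Here the control array numbered 1 was the lowest of the 8, and the 4 h difference was 0.58 ± 0.30 (adjusted p = 0.544). Psmc4 measured 1014 and 1319.9 in control, 1063 and 1063 at 1 h, 862 and 1131 at 2 h, and 1111 and 1299.8 at 4 h, with overlapping groups throughout.

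The other base and lid subunits measured were Psmd1, Psmd2, Psmd4, Psmd11 and Psmd13. All 5 were below 0 at 1 h, between -0.26 and -0.05, and 4 of 5 were above 0 at 4 h. Psmd2, a large scaffold subunit of the base, measured 885 and 1146 in control, 988 and 959.6 at 1 h, 1018 and 1355 at 2 h, and 1415 and 1521 at 4 h. Both 4 h arrays were above the 6 others, with a difference of 0.53 ± 0.25 from control (SE, n = 2 per group; adjusted p = 0.497, and 0.133 with the block). Psmd4, a ubiquitin receptor, measured 1755 and 1552 in control, 1191 and 1589.9 at 1 h, 1486 and 1503 at 2 h, and 2372 and 1076 at 4 h. The 4 h arrays were the highest and the lowest of the 8, and its 2 other probe sets gave 0.45 and -0.12 at 4 h. Psmd11, a lid subunit, measured 1949 and 2392 in control, 2179 and 1808 at 1 h, 1859 and 2090.0 at 2 h, and 3228 and 1584 at 4 h, so its 4 h arrays too were the highest and the lowest. Psmd10, also called gankyrin, a chaperone of base assembly, had low signals of 97.1 and 114 in control, 53.7 and 76.1 at 1 h, 97.9 and 79.0 at 2 h, and 57.8 and 68.4 at 4 h. Both arrays at 1 h and at 4 h were below both controls, with a 4 h difference of -0.59 ± 0.36 (adjusted p = 0.615).

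**Figure D3:**
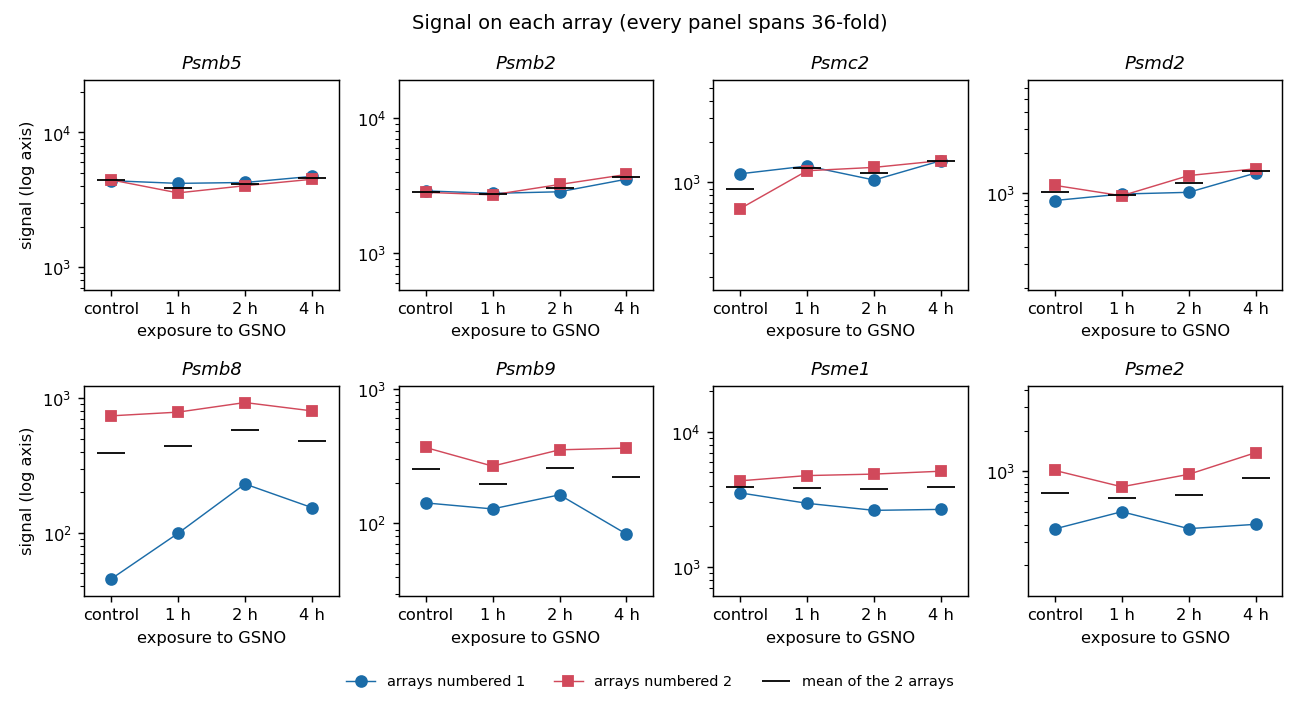
Signal on each array (log axis; every panel spans 36-fold) for 8 proteasome genes in control and after 1, 2 and 4 h of GSNO; blue circles are arrays numbered 1, red squares arrays numbered 2, and black bars the mean of both. In the upper row the array numbers lie close together at most times. In the lower row all 4 red points lie above all 4 blue points, as in Psmb8 with 738 to 926 above 45.4 to 230.5. Of all kept probe sets 13.3% were called higher on the arrays numbered 2.

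For the inducible catalytic subunits Psmb8 and Psmb9 and the interferon-responsive activators Psme1 and Psme2, the arrays numbered 2 were above those numbered 1 in every group. Psmb8, which replaces Psmb5 in the immunoproteasome, measured 45.4 and 738 in control, 99.2 and 786 at 1 h, 230.5 and 926 at 2 h, and 154 and 803 at 4 h. The log2 fold change at 2 h was 1.92 on the arrays numbered 1 and 0.32 on those numbered 2. The difference from control at 2 h was 1.12 with a 95% interval of -1.97 to 4.21 without the block and 0.34 to 1.90 with it (adjusted p = 1.00, and 0.171 with the block). Psmb9, another inducible catalytic subunit, measured 142 and 365 in control, 128 and 266 at 1 h, 163 and 351 at 2 h, and 83.2 and 362 at 4 h. Its groups overlapped at every time against control.

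The activators were Psme1, Psme2 and Psme4. Psme1, a subunit of the 11S cap, measured 3528 and 4338 in control, 2953 and 4744 at 1 h, 2619 and 4865 at 2 h, and 2663 and 5110.0 at 4 h. On the arrays numbered 1 every treated value was below control, and on those numbered 2 every treated value was above it. Psme2, its partner subunit, measured 374 and 1015 in control, 501 and 767 at 1 h, 375 and 949 at 2 h, and 404 and 1374 at 4 h. Psme4, a large single-chain activator, measured 282 and 339 in control, 247 and 533 at 1 h, 381 and 264 at 2 h, and 166 and 271 at 4 h. Both 4 h arrays of Psme4 were below both controls, with a difference of -0.50 ± 0.41 (SE, n = 2 per group; adjusted p = 0.712).

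The difference between the array numbers, arrays numbered 2 minus arrays numbered 1, was then taken from the same limma fit, a comparison added after the signals had been seen. Of the 27 genes 4 were higher and 0 lower on the arrays numbered 2, beside 13.3% of all kept probe sets higher and 8.42% lower, so the share of proteasome genes called was near that of all probe sets. The 4 genes were Psmb8, Psmb9, Psme1 and Psme2, and none of them overlapped between the numbers. They passed a test of this same difference, so the lack of overlap adds nothing to it. The share of all kept probe sets without such overlap was not counted. Psmb8 was higher by 2.60 ± 0.25 on the log2 scale (SE, n = 4 arrays per number; adjusted p = 1.82e-04), or 6.07-fold on the scale of signal with the offset. Of all kept probe sets 0.0851% had a higher difference than Psmb8, 1.91% than Psmb9, 2.02% than Psme2 and 10.1% than Psme1. Psmb9 was higher by 1.27 ± 0.21 (adjusted p = 0.00304), with 83.2 to 163 on the arrays numbered 1 and 266 to 365 on those numbered 2. Psme2 was higher by 1.25 ± 0.18 (adjusted p = 0.00195), and Psme1 by 0.70 ± 0.13 (adjusted p = 0.00495). The second kept probe sets of Psmb9 and Psme1 gave 1.26 (adjusted p = 0.00550) and 1.46 (adjusted p = 4.74e-05).

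The other 23 genes differed between the array numbers by -0.29 to 0.36, and the lowest adjusted p among them was 0.112. The 5 ATPases lay between -0.16 and 0.24. Single further probe sets of Psma5 and Psmb4 were also higher on the arrays numbered 2, by 1.69 (adjusted p = 0.00656) and 0.77 (adjusted p = 0.00228), while the leading probe sets of these genes gave -0.08 and 0.10. The arrays numbered 2 also came from other recorded experiments and chip lots than those numbered 1, so number, run and lot cannot be told apart, and neither can the preparation if it went with the number.

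**Figure D4:**
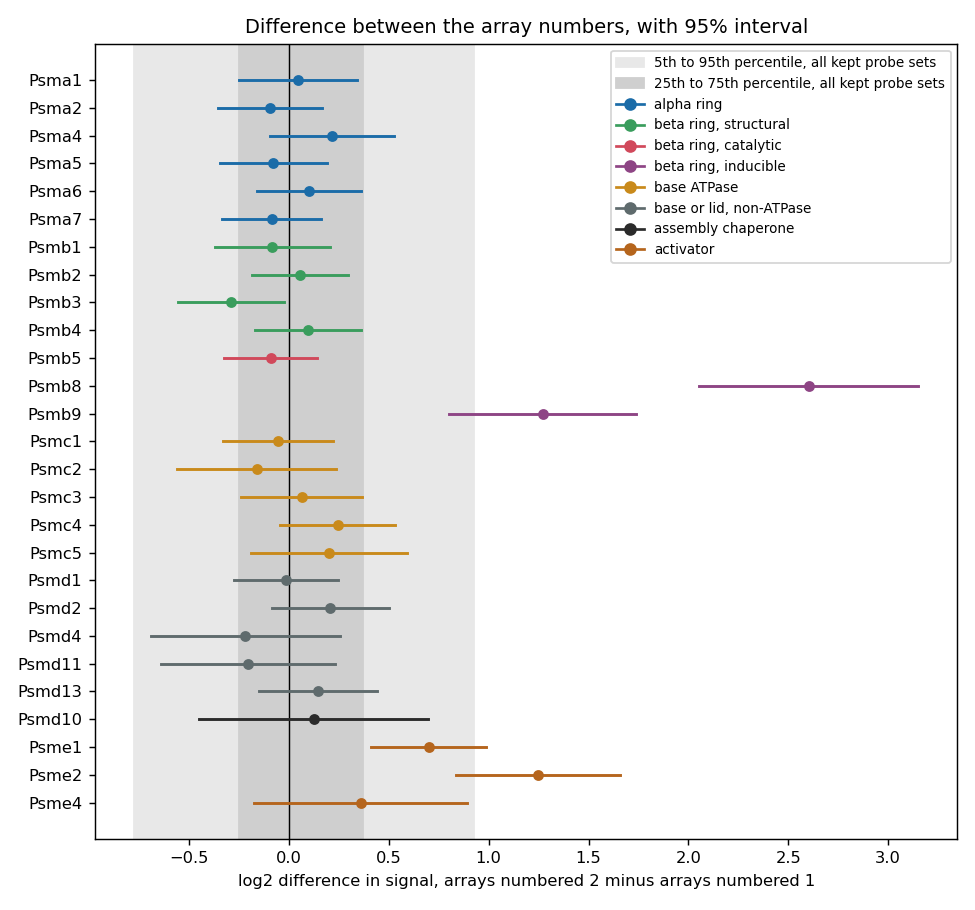
Log2 difference in signal between arrays numbered 2 and arrays numbered 1 (4 arrays each) for the 27 proteasome genes, with 95% intervals; grey bands hold the middle 50% and 90% of all kept probe sets. Psmb8, Psmb9, Psme1 and Psme2 have intervals wholly above 0, with values of 2.60, 1.27, 0.70 and 1.25, and the other 23 genes lie between -0.29 and 0.36.

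Genes of antigen processing and the interferon response were given beside these 4. Of 20 kept genes of that list 4 were higher and 1 lower on the arrays numbered 2, beside the 13.3% and 8.42% of all kept probe sets. Other lists differed between the array numbers too. Of 20 kept NRF2 targets outside the proteasome 7 were higher and 2 lower, and of 17 kept heat shock genes 0 were higher and 3 lower. Tap1 and Tap2, which carry peptides to class I molecules, B2m, their light chain, and the factor Irf7 were not called, at -0.06, 0.42, 0.04 and 0.44. Irf1, an interferon-induced transcription factor, was higher by 0.70 (adjusted p = 0.0277), and Ifngr1, a chain of the interferon gamma receptor, by 0.68 (adjusted p = 0.0258). The class I gene RT1-N3 was higher by 2.13 and the interferon-induced GTPase Gbp2 by 1.76, both with low signals that reached no more than 358 and 101. Pdia3, a chaperone of the peptide-loading complex, was lower by a log2 difference of -0.51. Among 3 kept leukocyte markers of 7 on the array, 1, Cd14, was higher, and the summed signal of the list was 494 to 796 on the arrays numbered 1 and 771 to 842 on those numbered 2. Markers of that list below the filter did not share this direction. Lyz2 measured 37.0 to 65.4 on the arrays numbered 1 and 8.50 to 29.8 on those numbered 2. For Itgam these ranges were 8.84 to 36.4 and 2.58 to 7.13, and Aif1 and Csf1r overlapped. Of 9 kept smooth muscle markers 6 were lower and 1 higher on the arrays numbered 2. Of 6 kept fibroblast markers 1 was higher, Thy1 by 1.03 (adjusted p = 0.00151), and of 2 kept lung epithelium markers 1 was lower, Krt18 at -1.57 (adjusted p = 0.00209). The part of these markers in the difference of the 4 proteasome genes was not tested.

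The promoter windows were also searched for 2 interferon motif cores, chosen after the signals were seen. The gamma interferon activation site core TTCNNNGAA, which reads the same on both strands, occurred in 1 of 26 windows, that of Psmb8, and in 8.87% of all promoters in the table. The interferon response element core GAAANNGAA, searched on both strands, occurred in 6 of 26 windows, those of Psma4, Psmb2, Psmb3, Psmb8, Psmd11 and Psme2, and in 9.71% of all promoters. Psmb8 and Psme2 are among the 4 genes that differed between the array numbers, while Psma4, Psmb2, Psmb3 and Psmd11 are not. The stretches of Psmb8, with the first core in capitals, and of Psme2, with the second, are shown as those of genes that differed.
Psmb8: agctgTTCCCAGAAgatgcccctcgccccg
Psme2: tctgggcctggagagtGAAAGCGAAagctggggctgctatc
They lie at chr20:4657252-4657281 on the minus strand for Psmb8 and chr15:33052780-33052820 on the minus strand for Psme2, and the capitals begin 245 bases before the start of Psmb8 and 53 before that of Psme2.

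The proteasome works with a wider set of ubiquitin genes. Of 56 such genes listed, 15 were on the array and 14 were kept, and 0 of 14 passed in either direction at 1, 2 or 4 h, with or without the replicate block. By array number 2 of the 14 were higher, the conjugating enzymes Ube2d2 and Ube2g1, by 0.67 and 0.60 (adjusted p = 0.0259 and 0.0281). The median log2 fold change of the 14 was -0.07 at 1 h, -0.04 at 2 h and -0.04 at 4 h. Pomp, the chaperone of core assembly, measured between 3140.4 and 4194 with a 4 h difference of -0.01. Vcp, the ATPase that extracts ubiquitinated proteins, measured between 2482 and 3338 with -0.08. Ube2b, a ubiquitin-conjugating enzyme, and Mdm2, the ligase for p53, were at 0.51 and 0.55 and missed the threshold (adjusted p = 0.596 and 0.697).

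The NRF2 targets outside the proteasome are given for their size, and the difference from the proteasome genes was not tested. Of 20 kept targets, 0 were called lower at any time, and 1 was called higher at 1 h, 3 at 2 h and 4 at 4 h. Of all kept probe sets 0.527%, 0.97% and 1.53% were called in either direction. With the replicate block the counts of targets called higher were 2, 4 and 13, beside 1.34%, 3.16% and 7.93% of all kept probe sets. The median log2 fold change of the targets was 0.02, 0.42 and 1.00 at the 3 times. Some targets were below 0 without being called, among them Cat and Gsta3 at 4 h. The gene called after 1 h was Gclc, those at 2 h were Gclc, Hmox1 and Nqo1, and those at 4 h included Taldo1 of the pentose phosphate pathway, at 1.35 (adjusted p = 0.0433). The highest 4 h value among proteasome genes was 0.76 ± 1.34 for Psmb8 (SE, n = 2 per group; adjusted p = 0.890, and 0.248 with the block). The 4 h and control groups of Psmb8 overlapped. Its 4 h log2 fold change was 1.39 on the arrays numbered 1, with low signals of 45.4 in control and 154 at 4 h. On the arrays numbered 2 it was 0.12. Among 20 kept genes of antigen processing and 17 kept heat shock genes 0 passed at any time without the block, and with it 1 heat shock gene, the co-chaperone Dnaja1, fell by 1.61 on the log2 scale at 4 h (adjusted p = 0.0457).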

How the data were processed

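The authors deposited intensity values (linear units, a single signal for every probe set) made from scans of biotin-labelled cRNA with the array maker's software, per the series design. Scaling is not given in the sources used here; trimmed means deviated by at most 0.0332% between arrays, so signals were used as deposited. They hold no detection calls. Of 8799 probe sets, 59 control features were left out, and 5877 were kept that reached the 40th percentile of signal on 2 or more of the 8 arrays. An offset of 21.1, the median over arrays of the 20th percentile, was added before log2. limma 3.58.1 in R 4.3.3 (lmFit, eBayes with a trend) was fitted on 4 groups and 8 arrays, leaving 4 residual degrees of freedom, or 3 with array number as a replicate block. The script was tested on simulated data. The submitters' methods name no block, so the fit without it is the main one. Same-numbered arrays deviated together, with correlations of 0.387 to 0.569 between the groups, in each of the 6 combinations above the 0.1 set as minimum, so the numbers pair the arrays; the pairing comes from the data. None of 28 pairs of arrays held identical values.

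Values on every array are given for genes past an adjusted p of 0.05, the 3 highest and 3 lowest fold changes at each time, catalytic subunits, activators and the receptor Psmd4; Psma7, Psmb2, Psmb3, Psmd2 and Psmd11 were added after their values were seen. Of other lists, genes past the threshold for GSNO in the fit without the block and Hmox1, Nqo1 and Gclc are named, with further ones chosen after their values were seen. The members and lists were chosen with earlier results of these data known. All 27 gene IDs were found in the RefSeq gene table with 0 symbols changed. Gene names are those of the platform annotation. The number of arrays limits the precision. Experiment, chip lot and array number were read as possible batches. The alternatives tried are block, recorded experiment, groups fitted, offset, filter, scaling, variance trend, probe sets used and each array left out.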

Additional observations from a re-analysis of the deposited data

How the results depend on the processing

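Under 19 alternatives the count of proteasome genes called was 0 in each direction at each time against control, and 0 between times, including the fit with the replicate block, which changed no call and leaves fold changes as they are. Of 738 values of the 13 genes that the naming rule picked, 691 kept their sign, and the 47 that did not were called under neither setting. Many of these values could not move. The replicate block, fitting only the 2 groups compared, the filters and the fit without a trend leave a fold change as it is. So does leaving out an array of a group that is not compared. The median of the 27 genes at 4 h was 0.152 as reported. Several alternatives, such as the replicate block or leaving out a 1 h or 2 h array, cannot move it. It was 0.0235 with the recorded experiment as a block, 0.307 with a common median, 0.110 with quantile normalization and 0.0946 with every probe set of a gene. Leaving out 1 array at a time it lay between 0.0115, without the control array numbered 1, and 0.240, without that numbered 2. The 2 h median lay between -0.136 and 0.0673, with the same arrays left out, and the 1 h median between -0.212 and 0.0266. The cause of these shifts was not tested. The common median moved the 4 h median of all kept probe sets from -0.161 to -0.00644, and quantile normalization moved it to -0.0588. The 4 genes higher on the arrays numbered 2 were called and positive in 64 of 64 values. They were picked because they passed in a fit of the same arrays, so these values are no separate support. The block fits and the fit of only the 2 groups compared are not among the 64. Under the common median 1 gene, Psmb3, was called lower on the arrays numbered 2, at -0.434 (adjusted p = 0.0474). Signals without detection calls and 2 arrays per group limit what the low genes Psmd10 and Psmb8 can show.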
